A study of Homo sapiens with 12 samples.

Results

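The transcripts described here are those of 10 genes of the insulin-like growth factor (IGF) system, chosen by name out of the 20345 rows of the expression table: the 7 IGF binding proteins IGFBP1, IGFBP2, IGFBP3, IGFBP4, IGFBP5, IGFBP6 and IGFBP7, the growth factor IGF2, and the receptors IGF1R and IGF2R. Each had 1 row, and 9 of the 10 reached the mean of 1 FPKM (read fragments relative to transcript length and library size) that a row needed to be tested, together with 11225 rows in all. The tenth, IGFBP1, was listed at 0 FPKM in every library. The members were proposed with results of these data known, among them a higher IGFBP3 level in untreated TEAD4KO libraries, so that comparison is given below as a description without p-values.

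The study asked how GLUP, a synthetic cyclic peptide built to bind the transcription factor TEAD4 and force it to oligomerise, alters transcription in HGC-27, an established line from an undifferentiated human gastric carcinoma. RNA-seq was run on 12 libraries in 4 groups of 3: wild-type (WT) cells left untreated, WT cells given GLUP, and TEAD4KO cells left untreated or given GLUP. All 4 groups were the same line grown in RPMI medium with fetal bovine serum, which itself carries IGFs and IGFBPs. The labels give neither dose nor duration. The study's methods name a peptide-free buffer as the control, and neither states how the TEAD4KO cells were made nor whether they are 1 clone. The methods speak of biological replicates, but nothing states that the 3 libraries of a group were separate cultures, so p-values measure the spread between libraries, which may be technical.

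The labels were first checked against the data. TEAD4 read 25.8, 24.4 and 25.01 FPKM in untreated WT and 23.7, 22.9 and 23.8 FPKM in WT with GLUP. In the libraries labelled TEAD4KO it read 30.1, 27.7 and 27.2 FPKM without peptide and 27.8, 29.4 and 26.02 FPKM under GLUP, so the transcript was not lower there (log2 fold change 0.17 ± 0.06 untreated, adjusted p = 0.135, and 0.23 ± 0.06 with GLUP, adjusted p = 0.0479, or 0.0081 and 0.11 after the length and GC correction described below, adjusted p = 0.955 and 0.271), and a deletion that leaves the transcript in place cannot be seen in gene-level FPKM. Such a deletion cannot be told apart here from a failed or mislabelled knockout. Genotypes are therefore named below by their labels only. Of 7 gastric mucosa markers, TFF1, TFF2 and GKN1 were listed at 0 in all libraries and none of the 7 exceeded 0.284 FPKM. The epithelial markers KRT8 (3.78 to 9.13 FPKM) and CDH1 (2.04 to 3.68 FPKM) were low, and EPCAM, KRT18 and KRT19 did not exceed 0.169, 0.290 and 0.0459 FPKM. Mesenchymal markers were mixed: vimentin (VIM) reached 1238 to 1704 FPKM and ZEB1 15.9 to 23.3 FPKM. FN1 lay at 3.85 to 9.15 FPKM and CDH2 did not exceed 0.149 FPKM. Matrix genes were mixed too: decorin (DCN), a fibroblast matrix gene, reached 55.1 to 77.6 FPKM and COL1A1 155 to 304 FPKM, while COL1A2 lay at 4.93 to 9.80 FPKM. PTPRC, CD68 and VWF, markers of other cells, did not exceed 0.276, 0.433 and 0.0439 FPKM. None of the 8 markers that could be tested passed in any comparison. 2 TEAD4KO libraries stood apart from the other TEAD4KO libraries on the first principal component (9.91 to 19.8): untreated 1, at -0.96, lay nearer to the WT libraries (-16.2 to -3.71), and GLUP 16, at -5.26, lay among them. Counts of members called are also given without them. For TEAD4KO against WT with GLUP, so are the values of IGF2R, IGF1R and IGFBP5. Sequencing depth is unknown: among rows under 0.1 FPKM, at most 0.850% shared 1 ratio between any pair of libraries, so whole reads could not be recovered.

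IGF1 and IGF2 signal through IGF1R, a receptor tyrosine kinase closely related to the insulin receptor. The 6 classical binding proteins, IGFBP1 to IGFBP6, are secreted, bind IGFs with high affinity and hold them away from the receptor or deliver them to it once a protease cuts the binding protein, while IGFBP7 binds IGFs only weakly. IGFBP6 prefers IGF2 over IGF1. IGF2R, the cation-independent mannose 6-phosphate receptor, has no kinase: it takes IGF2 into the cell for degradation and also carries lysosomal enzymes. In bulk RNA, fewer cells that express a gene and less of its RNA per cell cannot be told apart.

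The members lie on 8 chromosomes, with 2 neighbouring pairs. On GRCh37, IGFBP2 (ENSG00000115457, chr2:217497551-217529159, plus strand) and IGFBP5 (ENSG00000115461, chr2:217536828-217560272, minus strand) face each other across 7668 bases with no annotated gene between them. IGFBP1 (ENSG00000146678, chr7:45927959-45933259, plus strand) and IGFBP3 (ENSG00000146674, chr7:45951844-45961473, minus strand) do so across 18584 bases. Neighbours did not share a level: IGFBP3 averaged 141 FPKM beside IGFBP1 at 0, and IGFBP2 averaged 77.7 FPKM beside IGFBP5 at 4.80 FPKM. IGFBP7 (ENSG00000163453, chr4:57896939-57976551, minus strand) overlaps POLR2B on the opposite strand, which reached 74.3 FPKM, and no source used here says that counting used strand, so reads of the pair cannot be told apart where they overlap. The other members are IGFBP4 (ENSG00000141753, chr17:38599702-38613977, plus strand), IGFBP6 (ENSG00000167779, chr12:53491220-53496129, plus strand), IGF2 (ENSG00000167244, chr11:2150342-2179621, minus strand), IGF1R (ENSG00000140443, chr15:99191768-99507759, plus strand) and IGF2R (ENSG00000197081, chr6:160390114-160534539, plus strand). IGF2 shares its locus with the read-through gene INS-IGF2, which was listed at 0 in all libraries, and with IGF2-AS on the opposite strand, and IGF2R with AIRN on the opposite strand.

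TEAD factors bind the letters GGAATG, so the 250 bases upstream of each member's start site were searched for them on both strands (RefSeq promoter sequences, GRCh38.p14). 7 of the 10 members had an entry: IGFBP2 with 3 start sites, and IGFBP3, IGFBP4, IGFBP5, IGFBP6, IGF1R and IGF2R with 1 each. The letters stood in 2 of the 7, IGFBP5 and IGFBP6, against 14.3% of the 27305 genes in the table and 11.9% of its 35116 windows. The match in IGFBP6 begins 101 bases before the start site on the gene's own strand, and that in IGFBP5 begins 235 bases before it on the opposite strand, where it reads CATTCC. These 2 windows and that of IGFBP3, an abundant member without a match, are shown 5′ to 3′ on the gene's strand with the matched letters in capitals.
IGFBP6 (chr12:53097417-53097666, plus strand): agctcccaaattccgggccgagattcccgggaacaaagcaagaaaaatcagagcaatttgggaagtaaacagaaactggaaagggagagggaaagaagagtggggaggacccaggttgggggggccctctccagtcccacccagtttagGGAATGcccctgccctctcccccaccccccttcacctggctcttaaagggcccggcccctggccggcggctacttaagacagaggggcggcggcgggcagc
IGFBP5 (chr2:216695550-216695799, minus strand): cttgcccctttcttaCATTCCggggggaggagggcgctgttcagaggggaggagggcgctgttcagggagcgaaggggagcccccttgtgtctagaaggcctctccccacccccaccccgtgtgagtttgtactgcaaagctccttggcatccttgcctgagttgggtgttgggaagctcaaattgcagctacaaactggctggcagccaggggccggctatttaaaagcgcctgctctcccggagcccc
IGFBP3 (chr7:45921273-45921522, minus strand): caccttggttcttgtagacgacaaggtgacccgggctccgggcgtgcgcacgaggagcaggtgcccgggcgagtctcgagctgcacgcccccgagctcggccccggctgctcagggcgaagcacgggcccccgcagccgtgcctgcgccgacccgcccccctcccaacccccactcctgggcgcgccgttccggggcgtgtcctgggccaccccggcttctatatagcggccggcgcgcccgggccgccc
A match is a string of letters and not a shown binding site. In the TEAD4KO comparison with GLUP, the log2 fold change was 0.72 for IGFBP6, which passed, and -0.41 for IGFBP5, which did not (values below). Whether the letters have a part in the values of any member was not tested.

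IGFBP4 and IGFBP3 were the most abundant members. Over the 12 libraries IGFBP4 averaged 144 ± 23.0 FPKM (SD) and IGFBP3 141 ± 28.5 FPKM, which placed them at ranks 323 and 333 of the 20345 rows. Their ranges overlapped, and IGFBP4 was the higher of the pair in 7 of 12 libraries. IGFBP2 followed at 77.7 ± 13.01 FPKM, below both in every library. IGFBP6 (34.9 ± 8.99 FPKM) and IGFBP7 (30.9 ± 4.91 FPKM) overlapped, with IGFBP6 the higher in 9 of 12. IGF2R averaged 14.4 ± 3.04 FPKM, IGFBP5 4.80 ± 1.05 FPKM and IGF1R 4.06 ± 0.838 FPKM, the last pair overlapping with IGFBP5 the higher in 11 of 12 libraries. IGF2, the only ligand of the system above 1 FPKM on average, stood at 1.71 ± 0.329 FPKM. IGF1 did not exceed 0.495 FPKM and IGFALS, which holds IGFs with IGFBP3 in the circulating ternary complex, did not exceed 0.166 FPKM.

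The summed IGFBP level was 362, 374 and 340 FPKM in untreated WT, 357, 372 and 413 FPKM in WT with GLUP, 452, 487 and 487 FPKM in untreated TEAD4KO and 559, 529 and 474 FPKM in TEAD4KO with GLUP. All 6 TEAD4KO libraries lay above all 6 WT libraries, also as a share of the library's summed FPKM (0.114% to 0.135% against 0.0898% to 0.110%). Of all single rows, 18.3% untreated and 16.7% with GLUP also separated the genotypes upward. The binding proteins that make up most of the sum have transcripts of 947 to 2613 bases. Over all rows, shorter transcripts had higher values in TEAD4KO against WT (Spearman -0.520 untreated and -0.478 with GLUP). The part of that trend in the sum was not tested. Between the untreated groups the shares of the most abundant pair moved less than the sum: IGFBP4 made up 34.8% ± 1.11 (SD, n = 3) in untreated WT and 34.5% ± 1.13 in untreated TEAD4KO, and IGFBP3 30.9% ± 0.995 and 30.7% ± 2.70. With GLUP the order of these 2 mean shares was the other way, with IGFBP3 at 34.1% ± 2.67 and IGFBP4 at 32.0% ± 0.607 in WT, and IGFBP3 at 34.1% ± 0.625 and IGFBP4 at 32.1% ± 1.03 in TEAD4KO. This did not hold in WT GLUP 14, where IGFBP3 read 113 FPKM and IGFBP4 117 FPKM. IGFBP6 made up 7.67% ± 0.256 in untreated WT and 8.86% ± 0.753 in untreated TEAD4KO, and IGFBP5 1.55% ± 0.259 in WT and 0.817% ± 0.204 in TEAD4KO with GLUP. These sums and shares are descriptions and were not tested.

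**Figure D1:**
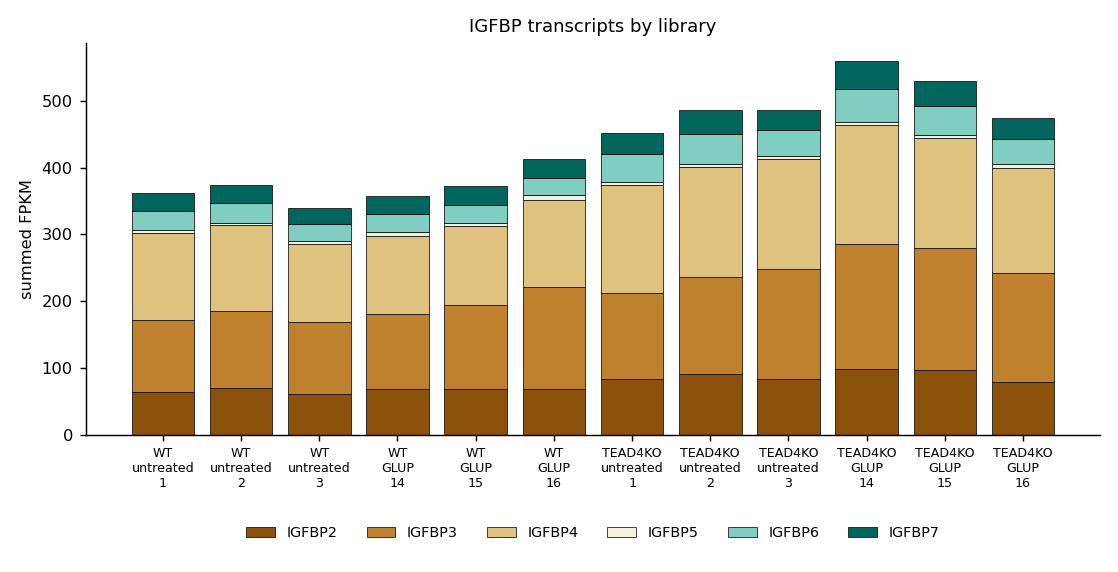
Summed FPKM of the IGFBP transcripts in each of the 12 libraries, stacked by gene (IGFBP1, at 0, is not drawn). The 6 TEAD4KO libraries, from 452 to 559 FPKM, stand above the 6 WT libraries, from 340 to 413 FPKM, and IGFBP3 and IGFBP4 fill most of every bar. The sum was not tested, and 18.3% (untreated) and 16.7% (with GLUP) of all single rows also separated the genotypes upward.

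Cells labelled TEAD4KO and WT were compared under GLUP, a comparison that shares no library with the untreated one, though both rest on the same lines and the same estimate of spread. With GLUP, 5 binding proteins rose in TEAD4KO: IGFBP6 most, followed by IGFBP4, IGFBP3, IGFBP2 and IGFBP7. These were 5 of 9 members tested, against 4.91% of all rows called higher and 5.84% called in either direction (limma on log2(FPKM + 1), Benjamini-Hochberg adjusted p under 0.05 over 11225 rows). No member passed in the lower direction, which held 0.935% of all rows, although IGFBP5, IGF2, IGF1R and IGF2R had unadjusted p-values under 0.05, as 23.9% of all rows had. No member reached a fold of 2, which 0.0535% of all rows passed and exceeded. All 9 members separated the libraries of the 2 genotypes with GLUP without overlap, IGFBP2, IGFBP3, IGFBP4, IGFBP6 and IGFBP7 upward as 16.7% of all rows did and the other 4 downward as 12.9% did. The members were proposed with results of these data known, so these counts are not independent evidence of a direction.

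IGFBP6, the binding protein that prefers IGF2, read 26.6, 26.6 and 25.2 FPKM in WT with GLUP and 49.7, 43.7 and 38.3 FPKM in TEAD4KO with GLUP. Its lowest TEAD4KO library stood well above its highest WT library, and the log2 fold change was 0.72 ± 0.09 (SE, adjusted p = 0.00127). IGFBP4, an inhibitory binding protein cleaved by the protease PAPPA, read 117, 118 and 130 FPKM in WT and 178, 165 and 157 FPKM in TEAD4KO, again without overlap. Its log2 fold change was 0.45 ± 0.07 (adjusted p = 0.00277). IGFBP6 and IGFBP4 passed at the adjusted p in all 21 alternative settings without a fold limit, with adjusted p from 0.000172 to 0.0100 and from 0.000539 to 0.0450.

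IGFBP3, the main carrier of IGFs in serum, read 113, 126 and 152 FPKM in WT with GLUP and 187, 183 and 163 FPKM in TEAD4KO with GLUP. The highest WT library came close to the lowest TEAD4KO library, and the log2 fold change was 0.45 ± 0.11 (adjusted p = 0.0248). The call was lost in 7 of 21 settings, among them leaving out WT GLUP 14, WT GLUP 15, TEAD4KO GLUP 14 or TEAD4KO GLUP 15 (adjusted p = 0.109, 0.0785, 0.115 and 0.0902), over a range of 0.00361 to 0.115. IGFBP2, which binds IGF2 and is raised in several carcinomas, read 68.6, 68.0 and 68.8 FPKM in WT and 98.5, 96.9 and 79.5 FPKM in TEAD4KO. Its log2 fold change was 0.41 ± 0.08 (adjusted p = 0.0108), and the adjusted p was 0.05001, 0.0639 and 0.0559 without WT GLUP 16, TEAD4KO GLUP 14 and TEAD4KO GLUP 15. IGFBP7 read 27.5, 29.0 and 28.6 FPKM in WT and 41.3, 37.4 and 30.9 FPKM in TEAD4KO. Its log2 fold change was 0.35 ± 0.09 (adjusted p = 0.0459), a call near the threshold that held in only 7 of 21 settings.

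The receptors and the less abundant members lay on the other side of 0. IGF2R, which clears IGF2, read 17.5, 15.8 and 18.1 FPKM in WT with GLUP and 11.3, 9.77 and 15.7 FPKM in TEAD4KO with GLUP. IGF1R, the signalling receptor, read 4.66, 4.52 and 5.07 FPKM in WT and 3.11, 2.74 and 4.05 FPKM in TEAD4KO. In both, TEAD4KO GLUP 16 was the highest TEAD4KO library and came close to the lowest WT one. The log2 fold changes were -0.47 ± 0.16 (adjusted p = 0.0888) for IGF2R and -0.43 ± 0.14 (adjusted p = 0.0904) for IGF1R. Without TEAD4KO GLUP 16 they were -0.65 (adjusted p = 0.00891) and -0.55 (adjusted p = 0.0213), beside 17.4% of all rows called (824 lower). Leaving out TEAD4KO untreated 1, which enters this comparison through the shared estimate of spread only, gave an adjusted p of 0.0336 for each, beside 9.82% of all rows (294 lower). With all libraries 5.84% of all rows were called (105 lower), so calls rose over the whole table and nothing particular to the receptors is read from these passes.

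IGFBP5, a binding protein held in the extracellular matrix, read 5.21, 5.01 and 7.59 FPKM in WT with GLUP and 4.52, 3.26 and 4.86 FPKM in TEAD4KO with GLUP, which differ by -0.41 ± 0.15 on the log2 scale (adjusted p = 0.134). IGF2, the growth factor, read 2.08, 1.90 and 2.09 FPKM in WT and 1.76, 1.25 and 1.13 FPKM in TEAD4KO, a log2 fold change of -0.36 ± 0.13 (adjusted p = 0.110). At these levels the pseudocount of 1 FPKM compresses differences: with a pseudocount of 0.1 the value for IGF2 was -0.55.

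Libraries of WT and TEAD4KO with GLUP that carry the same number deviated together from their group means (correlations of 0.106, 0.152 and 0.336 for 14, 15 and 16), which the untreated libraries did not in every pair. Unlike numbers reached 0.134 (WT 14 with TEAD4KO 15) and 0.116 (WT 15 with TEAD4KO 14). No label says that the numbers pair libraries across genotypes. The block was fitted over all 12 libraries, untreated ones included, so its calls rest on a pairing that is not established. In the fit with the replicate number as a block, IGF2R (adjusted p = 0.0319), IGF1R (adjusted p = 0.0428) and IGFBP5 (adjusted p = 0.0391) passed as lower, and 5 members passed as higher, beside 9.48% of all rows called in either direction (759 higher and 305 lower). When the block was joined to the correction for length and GC content described next, 2 members passed as higher, IGFBP4 (adjusted p = 0.0450) and IGFBP6 (adjusted p = 0.00833), and 0 as lower, beside 4.11% of all rows.

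**Figure D2:**
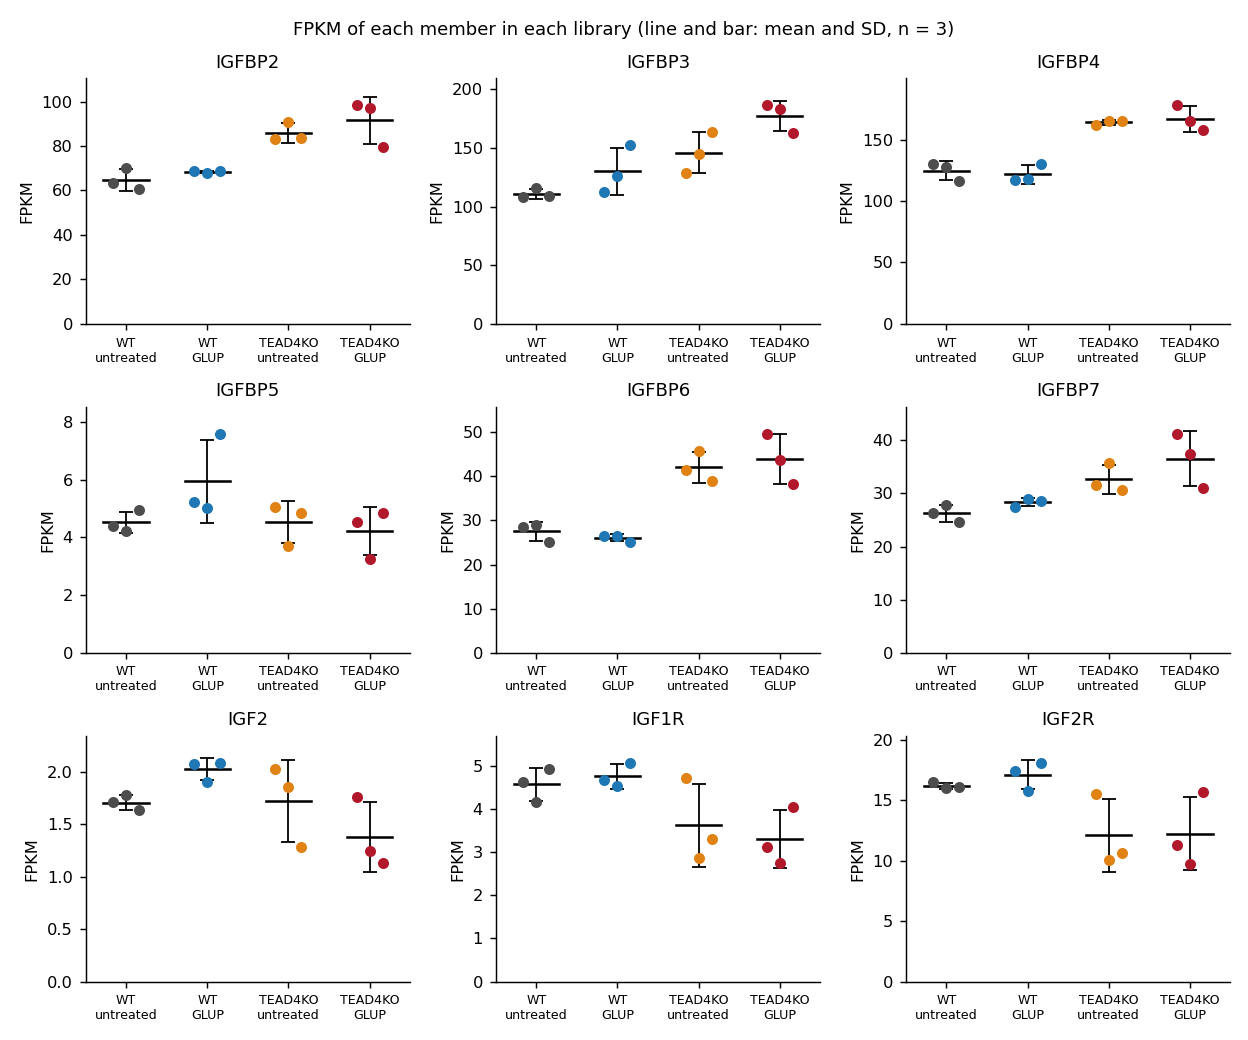
FPKM of the 9 members above 0 in each library, by group (points: libraries; line and bar: mean and SD, n = 3; each panel has its own axis from 0). IGFBP2, IGFBP3, IGFBP4, IGFBP6 and IGFBP7 are higher in TEAD4KO than in WT with GLUP without overlap, and IGF1R and IGF2R fall into 2 levels within each TEAD4KO group, with 1 library of each group at 15.5 to 15.7 FPKM for IGF2R and the other 2 between 9.77 and 11.3 FPKM.

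The members on either side of 0 also differed in transcript length. The binding proteins that rose have the shorter transcripts: 947 bases for IGFBP6, 1414 for IGFBP2, 1427 for IGFBP7, 2205 for IGFBP4 and 2613 for IGFBP3. IGF2 (5580 bases) and IGFBP5 (6239 bases) are longer, and IGF1R (12235 bases) and IGF2R (14061 bases) are longer than 98.0% and 98.9% of all tested rows. Over all rows with a length, the log2 fold change of TEAD4KO against WT was lower in longer transcripts, with a Spearman correlation of -0.520 untreated and -0.478 with GLUP (11077 rows, which are not independent replicates). IGFBP2, IGFBP6 and IGFBP4 are also rich in G and C (67.4%, 64.7% and 62.6% of bases).

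Set beside rows of like length, classes chosen after the data were seen, the members stood as follows with GLUP. The 1539 rows under 1500 bases had a median log2 fold change of 0.16 and a 10th to 90th percentile range of -0.089 to 0.46, with 17.6% called higher. IGFBP2 and IGFBP7 lay inside that range and IGFBP6 above it. The 3357 rows from 1500 to 3000 bases had a median of 0.058 and a range of -0.18 to 0.28, with 6.05% called higher, and IGFBP3 and IGFBP4 lay above it. The 2560 rows from 5000 to 10000 bases ranged from -0.29 to 0.089 around a median of -0.097, and IGFBP5 and IGF2 lay below it. The 464 rows of at least 10000 bases ranged from -0.38 to 0.048 around a median of -0.16, with 2.16% called lower, and IGF1R and IGF2R lay below it.

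**Figure D3:**
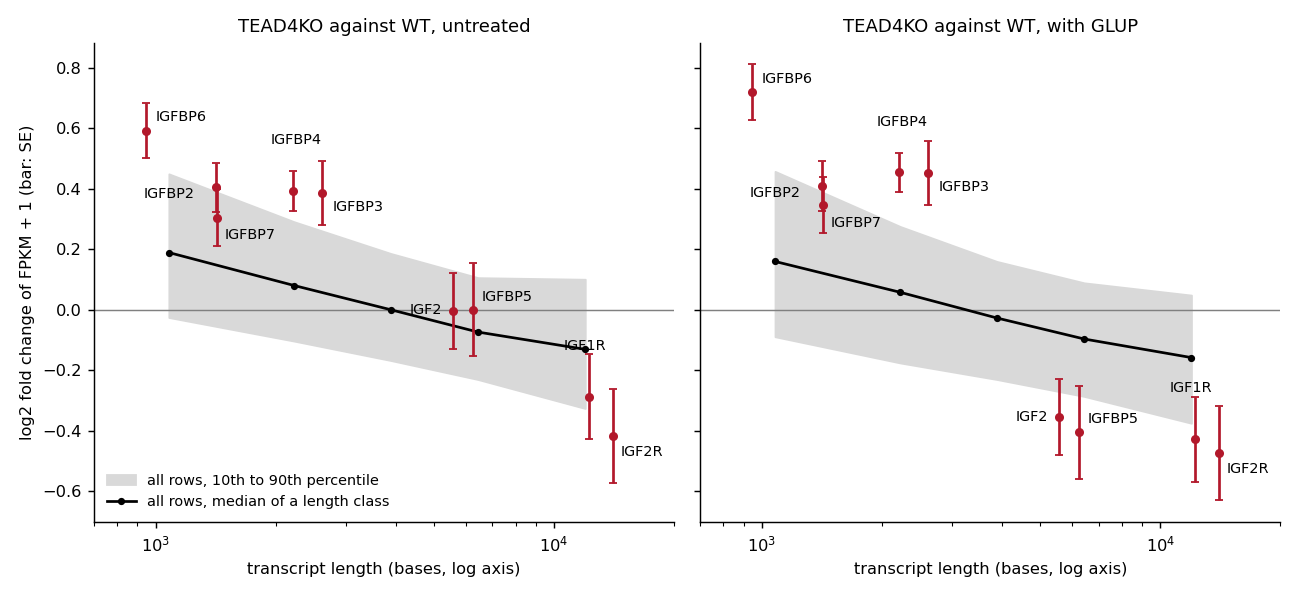
Log2 fold change of TEAD4KO against WT by transcript length (log axis), untreated and with GLUP. Red points are the members with their SE, the black line joins the medians of 5 length classes of all rows and the grey band spans their 10th to 90th percentiles. With GLUP, IGFBP3, IGFBP4 and IGFBP6 lie above the band and IGFBP5, IGF2, IGF1R and IGF2R below it.

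After each library's trend with length and GC content was removed, 3 members passed with GLUP, against 2.58% of all rows called higher: IGFBP6 (log2 fold change 0.45 ± 0.06, adjusted p = 0.00486), IGFBP4 (0.35 ± 0.07, adjusted p = 0.0206) and IGFBP3 (0.47 ± 0.11, adjusted p = 0.0417). The value of IGFBP3 was close to the uncorrected 0.45, while that of IGFBP6 was 0.72 before. IGFBP2 was at 0.13 ± 0.07 (adjusted p = 0.317) and IGFBP7 at 0.25 ± 0.08 (adjusted p = 0.0810). IGF1R was at -0.24 ± 0.08 (adjusted p = 0.0923) and IGF2R at -0.27 ± 0.09 (adjusted p = 0.113). The part of a library-wide trend in the differences of the receptors and of IGFBP2 was not tested beyond this correction.

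The 2 libraries that stood apart carried the receptors close to WT level. In TEAD4KO untreated 1 and TEAD4KO GLUP 16, IGF2R read 15.5 and 15.7 FPKM and IGF1R 4.71 and 4.05 FPKM, and the per-library correlation with length was -0.0900 and 0.160, against -0.256 to -0.568 in the other TEAD4KO and 0.124 to 0.474 in the WT libraries. IGFBP6 read 41.4 and 38.3 FPKM and IGFBP4 162 and 157 FPKM there, above every WT library (at most 29.0 and 130 FPKM). IGFBP3 in TEAD4KO untreated 1 (129 FPKM) lay below WT GLUP 16 (152 FPKM), IGFBP5 (5.06 and 4.86 FPKM) lay within the WT range, and TEAD4KO GLUP 16 was the lowest TEAD4KO library with GLUP for IGFBP2, IGFBP3, IGFBP4, IGFBP6 and IGFBP7. Without both libraries, 5 members passed as higher and 3 as lower with GLUP (IGF2R at -0.65, adjusted p = 0.000383, IGF1R at -0.55, adjusted p = 0.00232, and IGFBP5 at -0.50, adjusted p = 0.0400), beside 27.8% of all rows called in either direction (1627 higher and 1494 lower). These libraries were picked for lying near or among the WT libraries on the first principal component. Leaving them out therefore widens differences between the genotypes by that choice, and nothing is read from these calls.

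In untreated cells the same genotypes gave values that are described without p-values, since IGFBP3 was chosen with this comparison known. IGFBP6 read 28.5, 29.0 and 25.1 FPKM in WT and 41.4, 45.8 and 39.0 FPKM in TEAD4KO, a log2 fold change of 0.59 ± 0.09. IGFBP2 read 63.4, 70.2 and 60.5 FPKM against 83.1, 91.0 and 83.7 FPKM (0.41 ± 0.08). IGFBP4 read 130, 128 and 116 FPKM against 162, 165 and 165 FPKM (0.39 ± 0.07). These 3 separated the genotypes without overlap, as did the next 2, and as 18.3% of all rows did upward. IGFBP3 read 108, 116 and 109 FPKM in WT and 129, 145 and 164 FPKM in TEAD4KO (0.39 ± 0.11). IGFBP7 read 26.4, 27.8 and 24.5 FPKM against 31.6, 35.7 and 30.7 FPKM (0.30 ± 0.09).

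The receptors in untreated TEAD4KO were split by library. IGF2R read 16.5, 16.01 and 16.1 FPKM in WT and 15.5, 10.1 and 10.7 FPKM in TEAD4KO (-0.42 ± 0.16, without overlap, as 7.47% of all rows downward), and IGF1R 4.62, 4.16 and 4.91 FPKM against 4.71, 2.85 and 3.29 FPKM (-0.29 ± 0.14). In both, untreated 1 was the TEAD4KO library near WT. IGFBP5 (4.41, 4.21 and 4.93 against 5.06, 3.71 and 4.85 FPKM) and IGF2 (1.71, 1.78 and 1.63 against 2.02, 1.85 and 1.28 FPKM) overlapped, with log2 fold changes of -0.00027 ± 0.15 and -0.0036 ± 0.13. In this comparison 4 of 9 members were called higher, IGFBP2, IGFBP3, IGFBP4 and IGFBP6, beside 4.92% of all rows, and 0 as lower beside 0.499%. In either direction 5.42% of all rows were called, 0.0356% with a fold over 2 and no member among them. The comparison is part of how the members were chosen, and nothing is read from that count.

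After the length and GC correction the untreated values were 0.28 ± 0.06 for IGFBP6, 0.24 ± 0.07 for IGFBP4, 0.37 ± 0.11 for IGFBP3, 0.18 ± 0.08 for IGFBP7 and 0.069 ± 0.07 for IGFBP2. As with GLUP, the value of IGFBP2 moved most and that of IGFBP3 least among these 5.

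**Figure D4:**
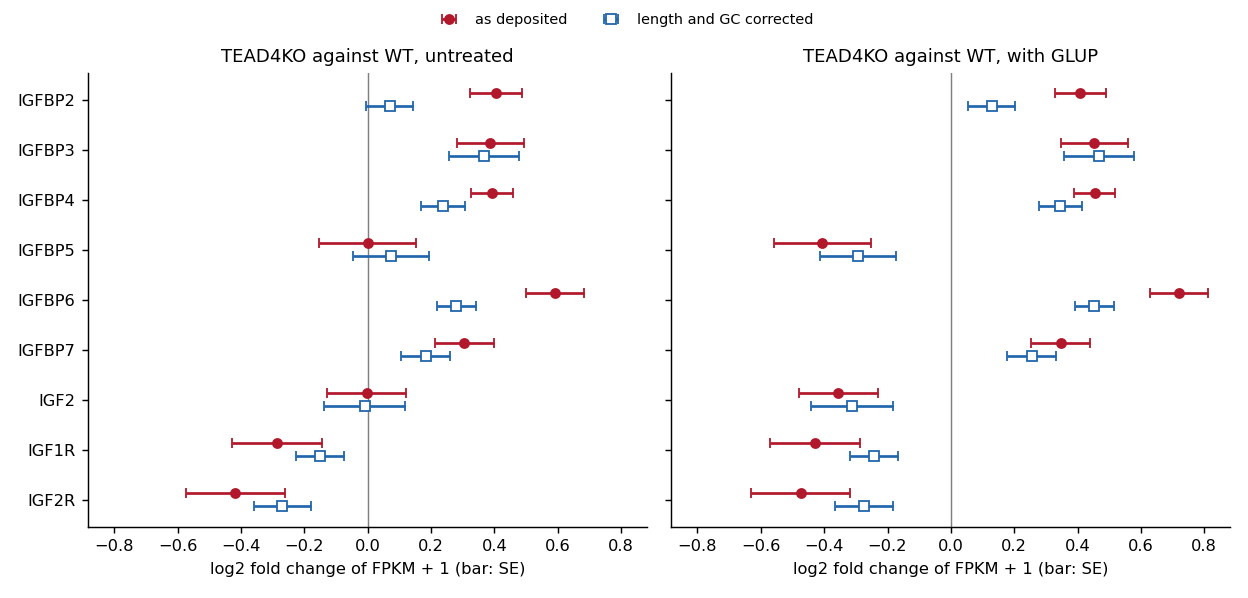
Log2 fold change of TEAD4KO against WT for the 9 members, untreated (left) and with GLUP (right), as deposited (red) and after removal of each library's length and GC trend (blue), with SE. IGFBP2 moves from 0.41 to 0.07 untreated and from 0.41 to 0.13 with GLUP, while IGFBP3 stays between 0.37 and 0.47.

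GLUP itself was compared with no treatment within each genotype. No member passed in WT cells, where 0.00891% of all rows did, and no member had an unadjusted p under 0.05, as 3.43% of all rows had (limma, smallest adjusted p = 0.999). For IGFBP5 the untreated libraries gave 4.41, 4.21 and 4.93 FPKM and the GLUP libraries 5.21, 5.01 and 7.59 FPKM, a difference of 0.31 ± 0.15 on the log2 scale in which 1 library, WT GLUP 16, stood furthest out. IGF2 stood at 1.71, 1.78 and 1.63 FPKM without peptide and at 2.08, 1.90 and 2.09 FPKM under GLUP (0.16 ± 0.13). In these 2 members the groups did not overlap, as in 10.2% of all rows in that direction. IGFBP3 stood at 108, 116 and 109 FPKM without peptide and at 113, 126 and 152 FPKM under GLUP (0.22 ± 0.11), with 1 GLUP library inside the untreated range. The other 6 members lay between -0.072 and 0.11.

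In TEAD4KO cells no member passed either, where 0.0445% of all rows did, and 1 of 9, IGFBP3, had an unadjusted p under 0.05, as 6.38% of all rows had. Its libraries gave 129, 145 and 164 FPKM without peptide and 187, 183 and 163 FPKM under it, with a log2 fold change of 0.29 ± 0.11 (unadjusted p = 0.0173, adjusted p = 0.670). IGF2 stood at 2.02, 1.85 and 1.28 FPKM without peptide and at 1.76, 1.25 and 1.13 FPKM under GLUP (-0.19 ± 0.13, adjusted p = 0.900), and IGFBP5 differed by -0.09 ± 0.15 (adjusted p = 0.971). The other members lay between -0.093 and 0.15. In the mean of the 2 GLUP differences, IGFBP3 stood at 0.25 ± 0.07 (unadjusted p = 0.00457, adjusted p = 0.333), the only one of 9 members with an unadjusted p under 0.05, and 6 of 6 GLUP libraries lay above the mean of the untreated libraries of their genotype. No member passed there, against 0.258% of all rows, and 7.14% of all rows had an unadjusted p under 0.05. The 6 of 6 was not set against a share of all rows, and the IGFBP3 groups overlapped in both genotypes. WT GLUP 14 (113 FPKM) lay below WT untreated 2 (116 FPKM), and TEAD4KO GLUP 16 (163 FPKM) below TEAD4KO untreated 3 (164 FPKM).

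IGFBP5 and IGF2 had GLUP differences of opposite sign in WT and TEAD4KO. The difference between these differences was -0.41 ± 0.22 for IGFBP5 and -0.35 ± 0.18 for IGF2, and neither passed (limma interaction term, adjusted p of 0.9998 for both, unadjusted p = 0.0848 and 0.0677). None of the 9 members passed for the interaction, against 0.00891% of all rows, and none had an unadjusted p under 0.05, as 2.53% of all rows had.

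**Figure D5:**
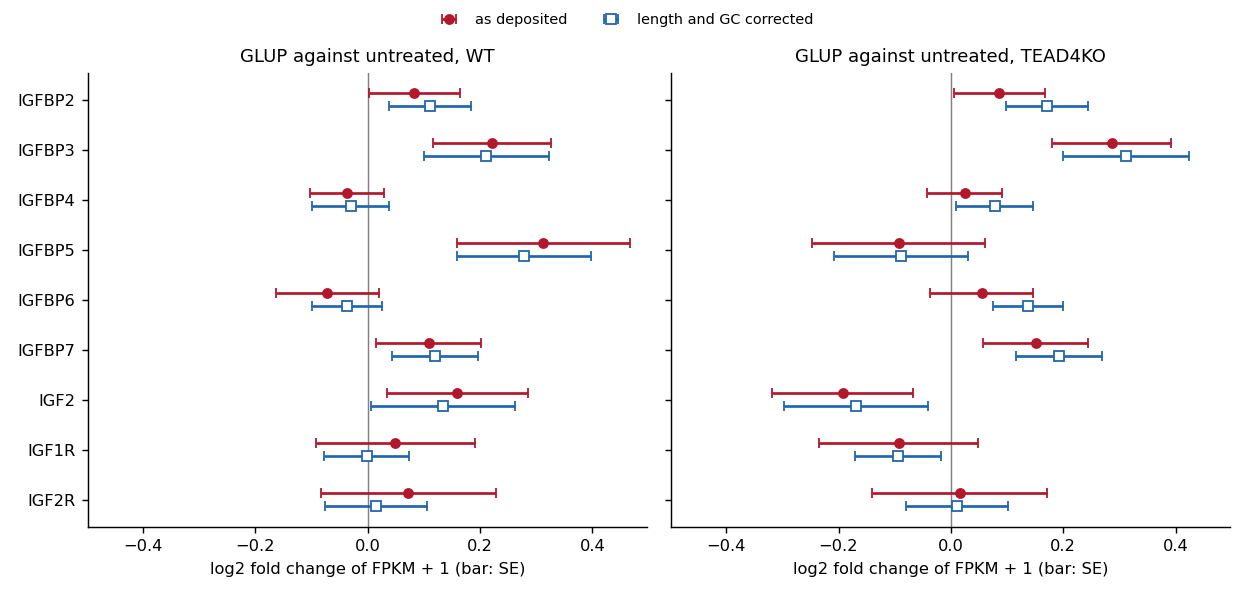
Log2 fold change of GLUP against untreated for the 9 members in WT (left) and TEAD4KO (right), as deposited (red) and after the length and GC correction (blue), with SE. No member passed the test in either genotype, and IGFBP3 lies at 0.22 and 0.29.

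Some members followed each other across the 12 libraries. As a description over 12 libraries that share 4 groups and the trends above, the Pearson correlation of log2(FPKM + 1) was 0.966 between IGF1R and IGF2R, 0.966 between IGFBP4 and IGFBP6, 0.964 between IGFBP2 and IGFBP7 and -0.865 between IGFBP2 and IGF1R. The ratio of IGF2R to IGF1R, both per length, stayed between 3.24 and 3.86 in all libraries, although each receptor varied between 2 levels in TEAD4KO. IGFBP3 was less tied to the others, at 0.842 with IGFBP2 and 0.736 with IGFBP6. IGF2 stood between -0.50 and 0.49 with the other members. IGFBP5 ranged from -0.56 with IGFBP6 to 0.73 with IGF1R, and stood at 0.68 with IGF2R, -0.16 with IGFBP3 and -0.40 with IGFBP4. Of all tested rows, those most like IGFBP3 were EMP1 (0.939), FHL1 (0.937) and PLK2 (0.929), those most like IGFBP6 were RALY (0.993), CTAG2 (0.989) and ISOC2 (0.988), and those most like IGFBP4 were H2AX (0.984), CYB561D2 (0.980) and FBXW5 (0.980). IGFBP2 was most like DGUOK (0.974), IGFBP7 like MT2A (0.971) and IGFBP5 like SEC31B (0.939). IGF1R was most like ASAP1 (0.984), NOTCH2 (0.982) and SMAD3 (0.982), IGF2R was close to DYNC1H1 (0.984) and BTBD7 (0.980), and GSN (0.857) was among the rows most like IGF2.

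The rest of the IGF system was read from 6 lists of 92 different genes, of which 69 were tested. With GLUP, 3 of them rose in TEAD4KO and 2 fell, with a median log2 fold change of -0.056 against -0.0039 over all rows. Of all rows 5.84% were called, a share near that of these 5 of 69, so nothing particular to the lists is read from the count. The genes that rose were CCN3 (0.31 ± 0.06, adjusted p = 0.00553) and KAZALD1 (0.36 ± 0.06, adjusted p = 0.00398), both distant relatives of the binding proteins, and CAV1, the caveolae scaffold (0.32 ± 0.09, adjusted p = 0.0468). Those that fell were INSR, the insulin receptor (-0.46 ± 0.12, adjusted p = 0.0353), and PIK3R1, the regulatory subunit of PI3-kinase (-0.26 ± 0.07, adjusted p = 0.0489). INSR read 2.19, 1.71 and 2.15 FPKM in WT with GLUP and 1.28, 0.956 and 1.36 FPKM in TEAD4KO with GLUP, without overlap. After the length and GC correction CCN3, KAZALD1 and CAV1 passed and INSR (adjusted p = 0.0789) and PIK3R1 (adjusted p = 0.127) did not, while MAN2B1, a lysosomal mannosidase named after its values were seen, passed as lower (-0.25, adjusted p = 0.0275, against 0.164 on the values as deposited). In the untreated comparison KAZALD1 (0.36 ± 0.06), CCN3 (0.23 ± 0.06) and TMEM219, a receptor of IGFBP3 (0.33 ± 0.07), were called higher and M6PR, the other mannose 6-phosphate receptor, lower (-0.29 ± 0.07), of which TMEM219 was not called after the correction (0.12).

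By list, with GLUP on the values as deposited, 2 of 6 tested IGFBP-related genes and 1 of 7 receptors and surface partners passed as higher. As lower, 1 of 7 receptors and surface partners and 1 of 28 adaptors and signalling genes passed. Over all rows 4.91% were called higher and 0.935% lower, and nothing is read from these small counts. None of 8 proteases and inhibitors or 19 genes of mannose 6-phosphate sorting passed. Among ligands and soluble partners only IGF2BP1, IGF2BP2 and IGF2BP3, which bind IGF2 mRNA, were tested, and none passed. IGF1, IGFALS and insulin (INS) were below a mean of 1 FPKM and were not tested. Of the direct partners, LRP1, an endocytic receptor that binds IGFBP3, was at -0.66 ± 0.23 (adjusted p = 0.108), M6PR at -0.20 ± 0.07 (adjusted p = 0.0932), TMEM219 at 0.21 ± 0.07 (adjusted p = 0.0964), IRS1, the docking protein of IGF1R, at 0.04 ± 0.11 (adjusted p = 0.865) and STC2, an inhibitor of PAPPA, at -0.19 ± 0.10 (adjusted p = 0.257). PAPPA itself did not exceed 0.336 FPKM, and IRS2, the other main docking protein, was listed at 0 in all libraries, as were 2376 rows in all. No gene of the 6 lists passed for GLUP in WT, in TEAD4KO or over both genotypes with limma on the values as deposited. There 8, 3 and 12 of 69 had an unadjusted p under 0.05, beside 3.43%, 6.38% and 7.14% of all rows, and nothing is read from these counts. After the length and GC correction, 1 of 8 proteases and inhibitors passed as higher over both genotypes, beside 0.347% of all rows.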

How the data were processed

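RNA-seq of 12 HGC-27 libraries was analysed from 1 table of FPKM values per gene, deposited by the authors and normalized by them for transcript length and library size. The submitters' processing notes name HISAT2, Cufflinks, RSEM and hg19 without roles. Versions, strand setting and read counts are not given in the sources used here, so no count model was used. All 12 value columns were mapped to samples by name, and 0 were left unmapped.

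Values were tested as log2(FPKM + 1) with limma 3.58.1 in R 4.3.3 (4-group model, eBayes with trend, two-sided, Benjamini-Hochberg over the 11225 rows that averaged 1 FPKM or more). A row passed at an adjusted p under 0.05. A fold change is on the log2(FPKM + 1) scale and understates the change of low rows. "Corrected" values had each library's trend with transcript GC content and log2 length removed (splines of 5 degrees of freedom, GENCODE v44lift37, 98.7% of tested rows). The fits were first tested on simulated data. Gene symbols came from the annotation for 96.5% of rows. Libraries with the same number in WT and TEAD4KO formed a block in an alternative fit over all 12 libraries, and not in the main fit. Each same-number correlation of deviations exceeded 0.1 with GLUP (0.106 to 0.336, although WT 14 correlated with TEAD4KO 15 at 0.134), which did not hold untreated (-0.0569 to 0.203). FPKM totals were 375361 to 423757 per library.

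The members, gene lists and tests were chosen with earlier results of these data known. Genes named are the 10 members, TEAD4, 10 direct partners, list genes that passed (up to 3 per direction and comparison) and up to 3 rows most correlated with a member. Alternatives were another pseudocount, other filters, scalings, the length and GC correction, a fold limit, the replicate block and omitted libraries.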

Additional observations from a re-analysis of the deposited data

How the results depend on the processing

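In TEAD4KO against WT with GLUP, all 9 members kept their direction in every alternative setting, and IGFBP4 and IGFBP6 passed in each of the 21 run without a fold limit. The 5 members higher became 3 with no filter on low values, 3 with quantile normalization, 3 with the length and GC correction, 2 with that correction and the replicate block, 0 with a fold limit of 2, and 2 to 5 when 1 library was left out (2 without TEAD4KO GLUP 14 or 15, 3 without WT GLUP 14, 15 or 16). The 0 members lower became 3 with the replicate block (IGFBP5, IGF1R and IGF2R), 3 without TEAD4KO untreated 1 and GLUP 16, and 0 to 2 when 1 library was left out (2, IGF1R and IGF2R, without either of those libraries). In the untreated comparison, where the counts are a description, the 4 members higher became 2 with median-ratio scaling, 1 with the length and GC correction, 1 with that correction and the replicate block, 0 with a fold limit of 2, and 2 to 5 when 1 library was left out (2 without WT untreated 1 or 3 or TEAD4KO untreated 2), and the 0 lower became 2 without both libraries and 0 to 2 when 1 was left out (2 without TEAD4KO untreated 1). Under the replicate block alone 4 and 0 members passed untreated and 0 in the interaction. With GLUP the share of all rows called moved with the setting too, from 1.75% without WT GLUP 16 to 27.8% without both TEAD4KO libraries among the settings without a fold limit. Both were picked for lying near or among the WT libraries, so a rise in calls without them is part of that choice. Except where named, the cause was not tested.

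No member passed for GLUP in WT, in TEAD4KO, over both genotypes or in the interaction under any alternative. IGFBP5 for GLUP in TEAD4KO, at -0.09 as reported, ran from -0.20 to 0.046 when 1 library was left out, and lay above 0 without TEAD4KO GLUP 15. Of the 9 members, 1 (GLUP in WT), 5 (GLUP in TEAD4KO), 5 (both genotypes), 5 (interaction) and 2 (TEAD4KO against WT, untreated) changed sign in at least 1 setting, with main values of at most 0.049, 0.093, 0.044, 0.14 and 0.0036. No paired analysis was possible within a genotype because untreated and GLUP libraries carry different numbers. A mean of at least 5 FPKM left out IGFBP5, IGF2 and IGF1R. Where an omission left 2 libraries in a group, the spread was pooled over the 4 groups. Depth is unknown, so counting error at the levels of IGF2, IGF1R and IGFBP5 could not be given.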
